A study of Mus musculus with 6 samples.

Results

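The 5 genes described here, Olfm2, Art3, Galnt16, Kcne4 and Tnfaip6, had the largest falls among the more abundant genes in RNA-Seq of isolated lung endothelial cells (iLECs) after deletion of Atp6ap2 in the endothelium of newborn mice. They are 5 of the 24972 gene symbols in the deposited table. They were chosen by their measured difference between genotypes, for the largest falls. They come first in an order of falls set up here. It holds genes that passed limma (adjusted P below 0.05), averaged 100 normalized counts or more over the 6 libraries and did not overlap between genotypes. Their own differences are therefore given as a description, without a test. Atp6ap2, on the X chromosome, encodes the (pro)renin receptor, an accessory protein of the vacuolar proton pump.

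iLECs were cells of P7 lungs that the authors pulled out of a collagenase and dispase digest with beads carrying an antibody to CD31. There were 3 control libraries and 3 Atp6ap2iECKO libraries. All 6 came from pups given tamoxifen (100 µg) at postnatal days 1 to 3, and the labels give Atp6ap2 fl/Y, a floxed allele in males, for all 6. Only the Atp6ap2iECKO mice also carried Cdh5-CreERT2, a tamoxifen-inducible Cre under a Cdh5 promoter, which is active in endothelium. In these libraries an effect of Cre and an effect of the deletion therefore cannot be told apart. The paper examined retinas of mice with Cre but no deletion and saw no significant change in vascular outgrowth. It reports no lung RNA from such mice. The labels name the strain C57BL/6, while the methods of the study name a mixed background of CD1 and C57BL/6. The sources used here do not say whether each library came from 1 animal, and the SDs and tests measure the spread between these libraries. Normalized counts, the unit throughout, are the authors' estimated counts after scaling between libraries, and summed to 26359661 to 28725799 in control and 26243878 to 27221581 in Atp6ap2iECKO libraries.

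Checks of the labels came out as follows. Atp6ap2 itself read 7490, 5815 and 5681 normalized counts in control replicates 1 to 3 and 4220, 2336 and 1982 in Atp6ap2iECKO replicates 1 to 3. Its log2 difference was -1.22 (SE 0.26, limma adjusted P = 0.0306), and Atp6ap2iECKO replicate 1 held the most transcript of the 3, 66.7% of the control mean against 36.9% and 31.3%. The call was lost when any library other than Atp6ap2iECKO replicate 1 was left out, with adjusted P values between 0.0628 and 0.104 (0.00595 to 0.222 over all 17 alternatives). Pecam1, which encodes CD31, read at least 48730 in every library. Xist, the RNA of the inactive X of female cells, read 37700 and 44400 in control replicates 1 and 2 and 39440 and 47490 in Atp6ap2iECKO replicates 1 and 3. It read 31.7 in control replicate 3 and 19.3 in Atp6ap2iECKO replicate 2. So 4 of the 6 libraries went against the fl/Y label, 2 in each genotype. The paper counts female fl/fl mice beside male fl/Y mice in both groups and used neonates of both sexes. It does not give the sex of each library, and values within the Xist classes are given below.

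The 5 genes are not one pathway. Olfm2 encodes olfactomedin 2, a secreted glycoprotein known from the nervous system and from smooth muscle differentiation. Art3 encodes a membrane-anchored relative of the ADP-ribosyltransferases that is thought to lack their catalytic activity. Galnt16 encodes a Golgi enzyme of the family that starts mucin-type O-glycosylation by adding N-acetylgalactosamine to serine or threonine. Kcne4 encodes a single-pass beta subunit that modulates voltage-gated potassium channels, among them the Kv7 channels of vascular smooth muscle. Tnfaip6 encodes TSG-6, a secreted hyaluronan-binding protein that is induced by TNF and IL-1 and transfers heavy chains of inter-alpha-inhibitor onto hyaluronan. Vessel walls hold several cell types beside the endothelium. Mural cells, that is pericytes and smooth muscle cells, wrap the endothelial tube, and fibroblasts lie around it, and RNA of these cells can enter a bead isolation with cells that stay attached. The paper checked the purity of its iLECs by immunoblot. It reports VE-cadherin in iLECs only, and the mural proteins alpha-SMA and desmin in the fraction of other cells. That blot reads protein, while the values here are RNA.

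The genes lie on 5 chromosomes and share no locus. In the GENCODE M21 annotation of GRCm38, Olfm2 (ENSMUSG00000032172.8) spans chr9:20667690-20746349 on the minus strand. Art3 (ENSMUSG00000034842.16) spans chr5:92331827-92414628 on the plus strand. Galnt16 (ENSMUSG00000021130.8) spans chr12:80518277-80630972, plus strand. Kcne4 (ENSMUSG00000047330.8) is the shortest locus, chr1:78816758-78820028, plus strand. Tnfaip6 (ENSMUSG00000053475.5) spans chr2:52038009-52056686, plus strand.

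Promoter windows are shown because a reader may want to see whether the start sites of the 5 genes look alike. That the 5 genes were low in the same libraries was a condition of their choice. RefSeq (GRCm38.p6) windows from 250 bases before to 50 after a start were found for all 5 genes, 11 windows in total, of which 1 per gene is printed. It is the window with the most kinds of motif, so the motifs in it are not a finding. Both strands were searched, and capitals mark the TATA box (letters TATAAA), the GC box (letters GGGCGG), the AP-1 site (letters TGANTCA) and the core read by TEAD factors (letters CATTCC) or their reverse complements. E-boxes (letters CANNTG) are left in lower case.
Olfm2, chr9:20726954-20727253, minus strand: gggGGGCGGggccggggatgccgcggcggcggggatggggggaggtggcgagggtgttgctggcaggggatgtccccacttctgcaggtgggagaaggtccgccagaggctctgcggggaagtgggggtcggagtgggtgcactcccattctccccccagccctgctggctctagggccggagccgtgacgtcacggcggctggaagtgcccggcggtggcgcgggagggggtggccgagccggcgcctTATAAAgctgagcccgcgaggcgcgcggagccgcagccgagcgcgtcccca
Art3, chr5:92386637-92386936, plus strand: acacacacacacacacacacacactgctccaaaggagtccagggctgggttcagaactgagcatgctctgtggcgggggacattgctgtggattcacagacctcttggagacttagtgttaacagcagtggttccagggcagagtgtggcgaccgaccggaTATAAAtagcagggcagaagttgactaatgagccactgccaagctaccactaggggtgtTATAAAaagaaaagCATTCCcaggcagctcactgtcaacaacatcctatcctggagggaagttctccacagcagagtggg
Galnt16, chr12:80518552-80518851, plus strand: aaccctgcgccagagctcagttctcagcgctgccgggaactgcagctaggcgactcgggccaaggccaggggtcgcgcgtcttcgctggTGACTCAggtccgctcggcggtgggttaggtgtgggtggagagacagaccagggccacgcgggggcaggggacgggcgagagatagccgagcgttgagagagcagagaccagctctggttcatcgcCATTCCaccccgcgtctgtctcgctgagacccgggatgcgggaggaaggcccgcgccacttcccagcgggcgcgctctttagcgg
Kcne4, chr1:78816661-78816960, plus strand: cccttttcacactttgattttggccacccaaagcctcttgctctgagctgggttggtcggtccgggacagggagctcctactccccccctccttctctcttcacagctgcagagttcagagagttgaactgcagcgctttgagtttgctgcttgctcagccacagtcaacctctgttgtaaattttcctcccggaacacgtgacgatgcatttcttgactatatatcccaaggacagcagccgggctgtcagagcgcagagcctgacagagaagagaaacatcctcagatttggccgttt
Tnfaip6, chr2:52037863-52038162, plus strand: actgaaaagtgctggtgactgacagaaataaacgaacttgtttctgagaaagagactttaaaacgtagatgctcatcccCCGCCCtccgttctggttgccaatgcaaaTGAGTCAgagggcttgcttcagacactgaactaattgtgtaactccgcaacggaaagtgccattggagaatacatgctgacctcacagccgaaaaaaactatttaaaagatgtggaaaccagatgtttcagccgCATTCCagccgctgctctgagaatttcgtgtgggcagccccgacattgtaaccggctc

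The windows had no shared layout. The Olfm2 window was 74.7% G or C, the Galnt16 window 68%, and those of Kcne4, Art3 and Tnfaip6 52.7%, 52% and 47%. Art3 held TATA boxes beginning at -89 and -30 from the annotated start and the Olfm2 window one at -1, while Galnt16, Kcne4 and Tnfaip6 held none in any window searched. An AP-1 site stood at -161 in Galnt16 and at -142 in Tnfaip6, where an E-box overlapped its first bases. Over all 11 windows, AP-1 sites were in 2, against 7.81% of all 32851 mouse windows of this length. CATTCC was in 5 of the 11, in Art3, Galnt16 and Tnfaip6, against 14.7% of all windows, and 2 windows of Galnt16 held the same site. GC boxes were in 3 of the 11 (35.7% of all windows), TATA boxes in 3 (13.6%) and E-boxes in 8, covering all 5 genes (72.3%). The CArG box, the motif of serum response factor in smooth muscle promoters, was in none of the 11 and in 1.63% of all windows. A match of letters is a description of the sequence only.

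Olfm2 read 244.6, 112.3 and 213.3 normalized counts in control replicates 1 to 3 and 53.5, 19.8 and 22.3 in Atp6ap2iECKO replicates 1 to 3. The lowest control was replicate 2 and the highest mutant was replicate 1, and they still lay 2.10-fold apart. The means were 190.1 ± 69.2 and 31.8 ± 18.8 (SD, n = 3 each), a log2 difference of -2.61 (SE 0.45), or 6.10-fold lower, on the scale of the log2 of the normalized count plus 1 that all log2 differences here use. Olfm2 had the lowest mean of the 5 and the widest spread among the mutants, 2.71-fold.

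Art3 read 149.7, 230.5 and 297.1 in control and 65.5, 47.6 and 26.3 in Atp6ap2iECKO replicates 1 to 3. Control replicate 1 was the low control, and mutant replicate 3 was at 11.6% of the control mean. The means were 225.8 ± 73.8 and 46.4 ± 19.6 (SD, n = 3 each), a log2 difference of -2.29 (SE 0.38), or 4.91-fold lower. The exons of Art3 share 133 bases with those of Cxcl10 on the other strand, and the library kit does not mark strand, so that reads there cannot be assigned to one gene. Cxcl10, a chemokine gene, read 100.2, 216.4 and 123.6 in control and 115.6, 152.2 and 188.2 in Atp6ap2iECKO, with overlapping groups (log2 difference 0.10, limma adjusted P = 0.885).

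Galnt16 read 174.1, 411.4 and 297.7 in control and 61.1, 77.5 and 46.8 in Atp6ap2iECKO replicates 1 to 3. Here control replicate 2 was highest and the order of the mutants was another one, with replicate 2 on top. The means were 294.4 ± 118.7 and 61.8 ± 15.4 (SD, n = 3 each), a log2 difference of -2.18 (SE 0.34), or 4.52-fold lower. The exons of Galnt16 overlap those of the antisense genes Gm26777 (487 bases) and 4933406B15Rik (145 bases), which are not among the symbols of the table used here.

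Kcne4 read 1407, 1841 and 1124 in control and 461.7, 238.1 and 296.9 in Atp6ap2iECKO replicates 1 to 3. It was the most abundant of the 5 and had the widest gap between the groups, 2.44-fold from the lowest control to the highest mutant. The means were 1457 ± 361 and 332.2 ± 115.9 (SD, n = 3 each), a log2 difference of -2.16 (SE 0.26), or 4.46-fold lower. The antisense gene Gm29536, whose span includes Kcne4, shares no exonic base with it and was listed at 0 in every library.

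Tnfaip6 read 867.3, 751.7 and 394.1 in control and 211.1, 122.1 and 113.6 in Atp6ap2iECKO replicates 1 to 3. Control replicate 3 was the low control and lay 1.87-fold above the highest mutant, the narrowest gap of the 5. The means were 671.0 ± 246.7 and 148.9 ± 54.0 (SD, n = 3 each), a log2 difference of -2.14 (SE 0.34), or 4.42-fold lower.

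**Figure D1:**
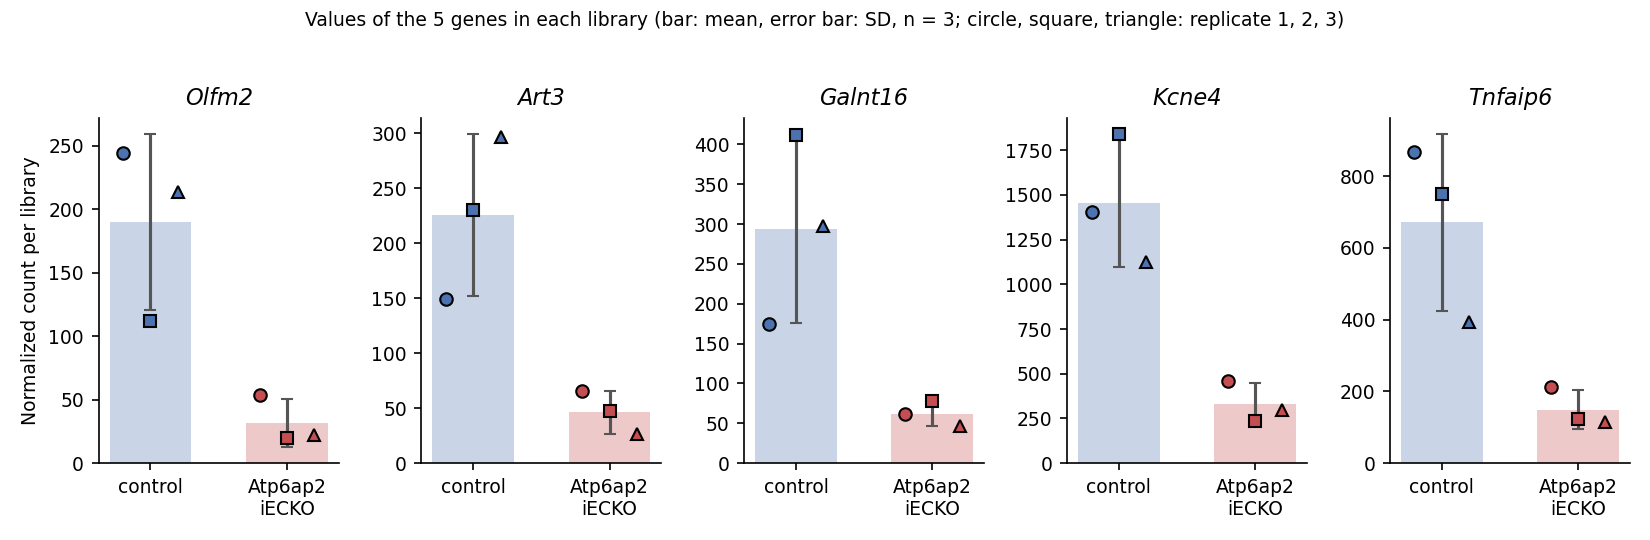
Normalized counts (vertical axis, a separate linear scale for each gene) of the 5 genes in control (blue) and Atp6ap2iECKO (red) libraries. Bars are means, error bars the SD of 3 libraries, and circle, square and triangle are replicates 1, 2 and 3. In each panel the 3 red points sit below the 3 blue points, and the lowest blue point is not the same replicate in every panel.

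All 5 genes had every Atp6ap2iECKO library below every control library, as the order of falls requires, and 15.0% of the 14456 genes tested did. All 5 were among the 719 genes that limma called lower, 4.97% of those tested. With falls of like size, 2 of the 5 were called without the mean-variance trend, 2 without control replicate 3, 2 without Atp6ap2iECKO replicate 2 and 2 without Atp6ap2iECKO replicate 3, and 0 among the Xist-positive libraries alone. A further 474 were called higher, and scaling to equal library totals gave 599 lower and 573 higher. A fall at least as large as that of Tnfaip6 was seen in 0.318% of tested genes, with no test. These percentages describe the table and carry no weight for the 5 genes, which the same contrast picked. Per kilobase of annotated exon, which allows levels to be compared between genes, the control means were 549 normalized counts for Kcne4, 392 for Tnfaip6, 71.3 for Olfm2, 57.4 for Art3 and 36.6 for Galnt16. The control ranges of Kcne4 (423 to 693) and Tnfaip6 (230 to 507) overlapped, and so did those of Olfm2 (42.1 to 91.8), Art3 (38.1 to 75.6) and Galnt16 (21.6 to 51.1). No range of the first pair overlapped one of the other 3 genes. In Atp6ap2iECKO the mean levels per kilobase were 125 for Kcne4, 87.1 for Tnfaip6, 12 for Olfm2, 11.8 for Art3 and 7.68 for Galnt16, the same order.

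The order of falls that puts these 5 first rests on its thresholds. The last of the 5, Tnfaip6 (-2.14, SE 0.34), and the gene after it, Efs (-2.12, SE 0.26), differed by far less than either standard error. Efs encodes an adaptor protein of the Cas family. The next were Fam84a (-2.08), Gata5 (-2.08), Pi15 (-2.01) and Mark1 (-1.98). Without the thresholds the 5 genes stand at places 22, 37, 44, 45 and 46 among all falls. Of the 41 other genes with a fall as large as that of Tnfaip6 or larger, 37 had a mean below 100 normalized counts and the other 4 did not pass the limma threshold. Below the mean of 100, 19 genes passed the other conditions, of which Gm28042 (mean 85.5) differed by -2.60, Cntn1 (mean 82.5) by -2.26 and Sp6 (mean 68.6) by -2.25, while Olfm2 entered with a mean of 111.0.

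**Figure D2:**
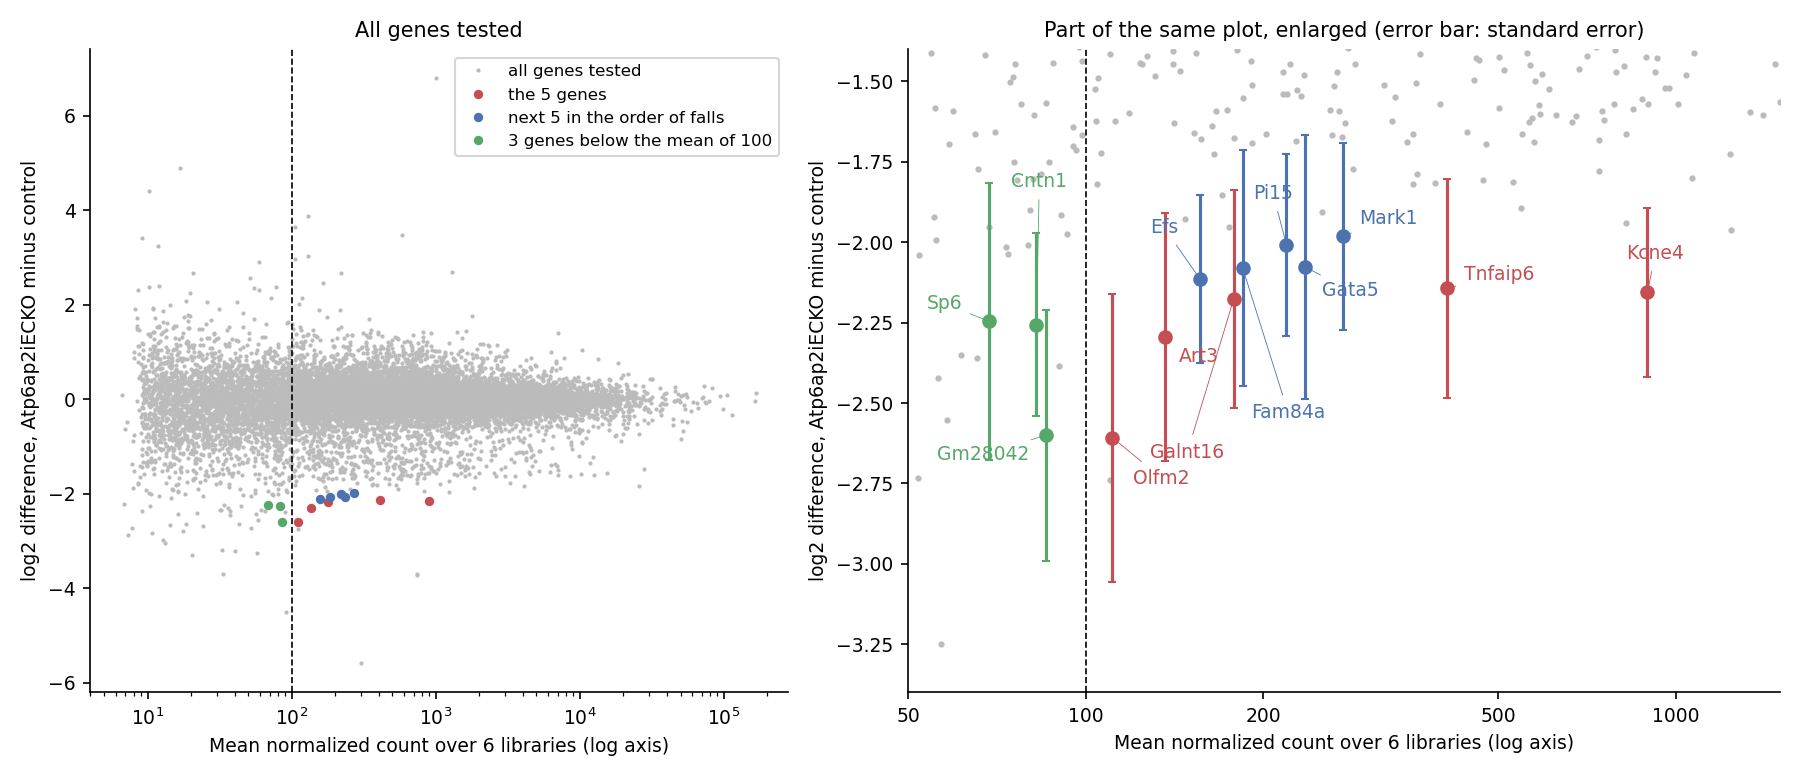
Log2 difference of Atp6ap2iECKO minus control (vertical axis) against the mean normalized count over the 6 libraries (horizontal log axis) for the 14456 genes tested (left) and enlarged around the 5 genes (right, error bars are standard errors). The 5 genes (red) lie just right of or beyond the dashed line at a mean of 100, and their error bars overlap those of the next 5 genes (blue) and of 3 genes below that mean (green).

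All 5 genes were lower in both Xist classes, as their choice requires. The order of falls admits only genes with every Atp6ap2iECKO library below every control library, so only the sizes below are informative. Among the Xist-positive libraries, 2 against 2, the log2 differences were -2.23 for Olfm2, -2.13 for Art3, -2.30 for Galnt16, -2.12 for Kcne4 and -2.37 for Tnfaip6. Between the Xist-low libraries, 1 against 1 and so without any spread, they were -3.37, -2.62, -1.93, -2.24 and -1.68 in the same order. Olfm2 showed the widest gap between the classes, and Tnfaip6 and Galnt16 were the genes with the smaller fall in the Xist-low pair.

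The mutant libraries were not equally low. Atp6ap2iECKO replicate 1, which retained the most Atp6ap2, held the most of the 3 mutants for Olfm2, Art3, Kcne4 and Tnfaip6, 4 of 5 genes, with Galnt16 highest in replicate 2. As shares of the control mean, the values in replicates 1, 2 and 3 were 28.1%, 10.4% and 11.7% for Olfm2 and 29.0%, 21.1% and 11.6% for Art3. They were 31.7%, 16.3% and 20.4% for Kcne4, 31.5%, 18.2% and 16.9% for Tnfaip6 and 20.8%, 26.3% and 15.9% for Galnt16. Replicate 1 was also the highest mutant for 469 of the 719 genes called lower (65.2%) and for 34.4% of all genes tested, so this order is shared by most genes called lower.

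Over the 6 libraries, Pearson's r on the log2 scale between Atp6ap2 and the 5 genes was 0.96 for Olfm2, 0.95 for Tnfaip6, 0.92 for Kcne4, 0.89 for Art3 and 0.78 for Galnt16. These 6 points fall into 2 genotypes which the choice of the genes keeps apart, so a high r is fixed in part and no P value is given. Among the 719 genes called lower, 7.15% had an r with Atp6ap2 as high as that of Olfm2, 10.7% as high as that of Tnfaip6, 19.6% as that of Kcne4, 37.4% as that of Art3 and 75.7% as that of Galnt16. With each library taken relative to the mean of its genotype, r was 0.83 for Olfm2, 0.78 for Tnfaip6, 0.65 for Kcne4, 0.45 for Art3 and -0.17 for Galnt16. Olfm2 thus followed Atp6ap2 most closely and Galnt16 least, over 3 libraries per genotype.

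The marker genes gave another order. Des, which encodes the intermediate filament desmin of muscle and pericytes, read 661.1, 977.2 and 997.6 in control and 323.2, 222.7 and 265.5 in Atp6ap2iECKO (log2 difference -1.69, SE 0.20, limma adjusted P = 0.00831). Its r over the 6 libraries was 0.96 with Kcne4, 0.96 with Art3, 0.94 with Galnt16, 0.90 with Olfm2 and 0.88 with Tnfaip6. Among the 719 genes called lower, 43.9% had an r with Des as high as that of Kcne4 and 85.1% as high as that of Tnfaip6, and relative to the genotype means r was 0.64 for Art3, 0.50 for Kcne4, 0.48 for Galnt16, 0.17 for Olfm2 and -0.09 for Tnfaip6. Rgs5, a pericyte marker that dampens G protein signaling, read 1083, 1570 and 1273 in control and 273.4, 365.5 and 379.6 in Atp6ap2iECKO (-1.94, SE 0.18, adjusted P = 0.00562). Its r was highest with Galnt16 (0.96) and lowest with Olfm2 (0.82), and relative to the genotype means these were 0.56 and -0.96. Over the 6 libraries, an r with Rgs5 as high was seen in 16.3% (Galnt16) and 93.5% (Olfm2) of the genes called lower. Relative to the genotype means these shares were 16.1% and 99.7%. Dcn, which encodes the fibroblast proteoglycan decorin, was low at 6.96, 34.4 and 11.6 in control and 14.9, 8.74 and 5.71 in Atp6ap2iECKO, with overlapping groups (-0.59, SE 0.65, adjusted P = 0.642). Its r lay between 0.27 with Olfm2 and 0.62 with Galnt16, and at such low values a weak r is no finding.

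Among themselves the 5 genes form 10 pairs with a median r of 0.90 (0.79 to 0.97), beside a median of 0.91 over all pairs of genes called lower. Relative to the genotype means the median was 0.27 (-0.50 to 0.80), beside 0.35 over all such pairs. Kcne4 and Tnfaip6 were the closest pair (0.97, and 0.80 within genotypes), and Olfm2 and Galnt16 the farthest (0.79 and -0.50). The median likeness of the 5 genes was thus not above that of other genes called lower, and Galnt16 went with Art3 (0.95) rather than with Olfm2.

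The nearest profiles of other genes were, for Olfm2, Abca1 (r = 0.995), the cholesterol exporter, then Tmem38b, Lipe, St3gal4 and H3f3a. For Art3 they were Higd1b (0.996), a pericyte marker, then Plod2, Cacna1g, Mxra8 and Adgrg2. For Galnt16 they were Colec12 (0.997), a scavenger receptor, then Robo2, Afap1l2, Col6a3, which encodes a chain of collagen VI, and Arhgef17. For Kcne4 they were Thbs1 (0.995), which encodes the matricellular protein thrombospondin 1, then Basp1, Parm1, Gm12185 and Mdga1. For Tnfaip6 they were Cldn34c1 (0.995), then Arid1b, Prkg1, Ecm2 and Ptprs. No gene was named for more than 1 of the 5. They were picked as the highest r of all tested genes with a mean of at least 100, over 6 libraries, and carry no P value. The sizes of their differences varied, from -0.20 for H3f3a to -1.73 for Parm1.

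CD31 beads can carry other cells, and most of the listed markers of mural cells and fibroblasts were lower in Atp6ap2iECKO, as the 5 genes were. Of 25 mural and smooth muscle markers, 16 were called lower (64%, beside 4.97% of all genes tested) and 0 higher (22 and 0 at an unadjusted P value below 0.05). Over the 25 markers the median log2 difference was -1.45 beside 0.005 over all genes tested, with 23 below 0 and 2 above. Pdgfrb, the PDGF receptor of mural cells and fibroblasts, differed by -1.54 and Gucy1a1, a subunit of the nitric oxide receptor of smooth muscle, by -1.53. The summed level of the list was 78581 to 84211 normalized counts in control and 55035 to 64667 in Atp6ap2iECKO, of which Mcam, which endothelial cells also express, held 34060 to 43330 over the 6 libraries. Of 22 fibroblast markers tested, 17 were called lower (77.3%, beside 4.97% of all genes tested) and 0 higher (17 and 1 unadjusted), with a median of -1.48 and sums of 113210 to 173040 against 41586 to 58808. Of the 22, 19 had a log2 difference below 0 and 3 above, the highest being Pi16 (1.12, SE 0.34, limma adjusted P = 0.0902). Col3a1, a fibrillar collagen gene, differed by -1.57, while Lum, with Dcn a defining fibroblast marker, was at or under 11.3 in every library. Without control replicate 3, Atp6ap2iECKO replicate 2 or Atp6ap2iECKO replicate 3 the mural count was 9 in each case, and the fibroblast count was 11 without control replicate 3 and 10 without Atp6ap2iECKO replicate 3.

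Of 24 endothelial markers 1 (4.17%, beside 4.97% of all genes tested), Tek, which encodes the angiopoietin receptor TIE2, was called lower (-0.53) and 0 higher (2 and 1 unadjusted), with a median of 0.02 and sums of 466050 to 611320 in control and 459470 to 557270 in Atp6ap2iECKO. Of 18 epithelial markers 1, Scgb1a1 of club cells, was called higher (beside 3.28% of all genes tested) and 0 lower (1 and 0 unadjusted, median -0.13), with sums of 34084 to 86767 and 41696 to 48829, the highest being control replicate 3. Of 17 leukocyte markers tested limma called 0, and 0 were below an unadjusted P value of 0.05 (median 0.10, sums of 11587 to 20222 and 9509 to 26594). Of 4 mesothelial markers tested limma called 0, with 1 below an unadjusted P value of 0.05 (median -0.09, sums of 565 to 1619 and 674 to 741, Calb2 at 0).

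Each of the 5 genes differed by more than any marker in the mural and fibroblast lists, as genes picked for their falls must. For genes so picked, a difference taken relative to the median of either list in the same libraries must also lie below 0. Relative to the mural median it was -1.19 for Olfm2, -0.88 for Art3, -0.76 for Galnt16, -0.74 for Kcne4 and -0.73 for Tnfaip6. Relative to the fibroblast median it was -1.09, -0.78, -0.66, -0.64 and -0.63 in the same order. Relative to the median of the endothelial list it was -2.62, -2.31, -2.19, -2.17 and -2.16 in the same order. In bulk samples, fewer cells of a type and less RNA per cell cannot be told apart, and the part of mural cells and fibroblasts in these falls was not tested.

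**Figure D3:**
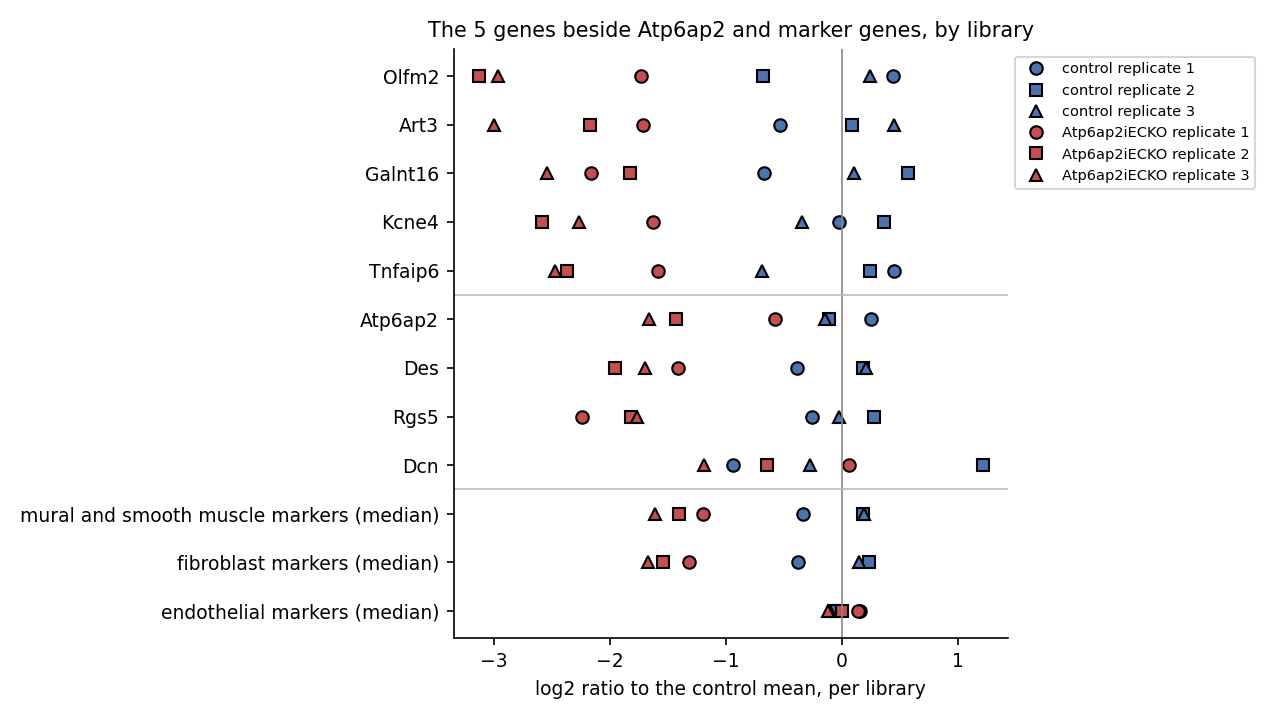
Log2 ratio of each library to the control mean (horizontal axis) for the 5 genes, for Atp6ap2, Des, Rgs5 and Dcn, and as the median over the mural, fibroblast and endothelial marker lists. Blue symbols are control and red symbols Atp6ap2iECKO libraries, with 1 point per library. Red points lie left of blue points for the 5 genes and for both the mural and the fibroblast medians, overlap with them for Dcn, and overlap with them for the endothelial median, where all 6 libraries lie between -0.12 and 0.15.

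Relatives and partners of the 5 genes were read from 6 lists that leave out the 5 genes themselves. Of 74 list genes tested, 7 were called lower (9.46%) and 3 higher, beside 4.97% and 3.28% of all genes tested, with a median log2 difference of -0.10. These counts depended on single libraries. They were 4 lower and 1 higher without control replicate 2, 3 and 0 without control replicate 3, 2 and 0 without Atp6ap2iECKO replicate 2, and 1 and 0 without Atp6ap2iECKO replicate 3. The counts of 0 were 6, 7 and 8 at an unadjusted P value below 0.05.

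Among 9 tested genes with an olfactomedin domain, the relatives of Olfm2, 2 were called lower (22.2%) and 1 higher (median 0.08), beside 4.97% and 3.28% of all genes tested. Olfml3, a secreted matrix protein, read 850.9, 1315 and 1365 in control and 516.4, 318.4 and 353.6 in Atp6ap2iECKO (-1.57, SE 0.23, limma adjusted P = 0.0117), with no overlap between the groups. Olfml1 was lower by a log2 difference of -1.28 (adjusted P = 0.0279). Adgrl2, an adhesion receptor of the latrophilin family, was higher, at 19430, 18020 and 15630 against 22570, 25950 and 28530 (0.54, SE 0.13, adjusted P = 0.0400). Of 17 alternatives 4 ended the call of Olfml3, 6 that of Olfml1 and 7 that of Adgrl2. Each was lost without control replicate 3 (adjusted P = 0.0507, 0.0968 and 0.109) and without Atp6ap2iECKO replicate 3 (0.0521, 0.101 and 0.145), and those of Olfml1 and Adgrl2 also without control replicate 2 (0.0785 and 0.0909) and Atp6ap2iECKO replicate 2 (0.0981 and 0.134). Olfm1, a relative best known from the brain, differed by 0.25 and Adgrl1 by 0.02, neither past the threshold. Olfm3 was listed at 0 in all libraries.

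Of the ecto-enzymes related to Art3, only Art4 and Art5 passed the filter, and limma called 0 of them, with 0 below an unadjusted P value of 0.05. Art4, which carries the Dombrock blood group in humans, read 85.6, 86.2 and 93.3 in control and 50.4, 70.3 and 72.9 in Atp6ap2iECKO (-0.46, SE 0.24), and Art5 differed by 0.09. Art1, Art2b and the pseudogene Art2a-ps were all under 9 normalized counts.

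Of 15 tested GalNAc-transferases and core 1 enzymes, relatives of Galnt16, 1 was called lower (6.67%, beside 4.97% of all genes tested) and 1 higher (3 and 2 unadjusted), with a median of -0.07. Galnt1, a broadly expressed family member, read 3158, 3219 and 3290 in control and 3889, 4416 and 4419 in Atp6ap2iECKO (0.39, SE 0.08, limma adjusted P = 0.0274). Galnt10 was lower by a log2 difference of -0.49 (adjusted P = 0.0353). Of 17 alternatives 7 ended the call of Galnt1 and 8 that of Galnt10, including every library left out except Atp6ap2iECKO replicate 1 (adjusted P of 0.0538 to 0.116 and 0.0559 to 0.126). Galnt18, the most abundant member, read 4299, 3807 and 4746 against 3980, 4337 and 3908 (-0.07, SE 0.10), with overlapping groups. Wbscr17, the nearest to Galnt16 in size of difference (-1.78, SE 0.53), was low in counts (32.7, 60.7 and 51.8 against 20.3, 18.2 and 5.58) and did not pass the threshold (adjusted P = 0.0811), and it was chosen for mention after its values were seen.

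Of the potassium channel genes that go with Kcne4, 9 were tested. Limma called 1 lower (11.1%, beside 4.97% of all genes tested) and 0 higher (2 and 0 unadjusted). Of the 9, 8 had a log2 difference below 0, with a median of -0.49 beside 0.005 over all genes tested. Kcnq5, a Kv7 channel, read 308.2, 394.6 and 416.6 in control and 192.0, 163.7 and 196.6 in Atp6ap2iECKO (-1.01, SE 0.17, limma adjusted P = 0.0160), with no overlap between the groups. Its call was lost without control replicate 3 (adjusted P = 0.0627), Atp6ap2iECKO replicate 2 (0.0640) and Atp6ap2iECKO replicate 3 (0.0589). Kcnq1, the most abundant channel of the list, read 1434, 1222 and 1170 against 1252, 1119 and 991.8 (-0.19, SE 0.12), and its groups overlapped. Of the other KCNE subunits, Kcne2 differed by -0.49 and Kcne3 by 0.43, neither past the threshold, and Kcne1 was at or under 1.87 in every library.

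Tnfaip6 was read beside 2 lists, genes of the hyaluronan matrix in which its protein works and genes that respond to TNF and NF-kappaB as it does. Of 19 tested hyaluronan genes, 3 were called lower (15.8%, beside 4.97% of all genes tested) and 0 higher (6 and 2 unadjusted), with a median of -0.35. Itih5, of the family of inter-alpha-inhibitor heavy chains, read 400.9, 486.2 and 502.8 in control and 205.5, 146.9 and 210.7 in Atp6ap2iECKO (-1.31, SE 0.18, limma adjusted P = 0.0106), and was called whichever library was left out. Vcan, the hyaluronan-binding proteoglycan versican, read 2146, 4933 and 2728 against 1119, 1217 and 1134 (-1.41, SE 0.26, adjusted P = 0.0215). Cd44, the main hyaluronan receptor, was lower by a log2 difference of -0.50 (adjusted P = 0.0475). Of 17 alternatives 5 ended the call of Vcan, among them the fits without control replicate 3 (adjusted P = 0.0642), Atp6ap2iECKO replicate 2 (0.0649) and Atp6ap2iECKO replicate 3 (0.0807). The call of Cd44 was lost in 10 of 17, whichever library was left out (0.0734 to 0.150). Has2, the synthase, read 1844, 1304 and 774.4 against 2922, 1931 and 2073 (0.88, SE 0.30), higher in all 3 mutants but not past the threshold (adjusted P = 0.117). Lyve1, a hyaluronan receptor of lymphatic and some other endothelium, differed by -0.003 with overlapping groups.

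Of 20 tested TNF and NF-kappaB response genes, 0 were called lower and 1 higher (1 and 6 unadjusted), beside 4.97% and 3.28% of all genes tested. The median was 0.12 beside 0.005 over all genes tested. Relb, an NF-kappaB subunit, read 909.2, 841.5 and 871.3 in control and 1058, 1236 and 1439 in Atp6ap2iECKO (0.50, SE 0.12, limma adjusted P = 0.0463). Its call was lost in 9 of 17 alternatives, with every library left out except Atp6ap2iECKO replicate 1 (adjusted P of 0.0752 to 0.152). Tnfaip3, an inhibitor in the same pathway, differed by 0.25 and Icam1, a leukocyte adhesion molecule, by 0.24, neither past the threshold. Tnfaip1, also of this list, differed by 0.13 and did not pass the threshold. Of the 20 genes, 12 had a log2 difference above 0 and 8 below.

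**Figure D4:**
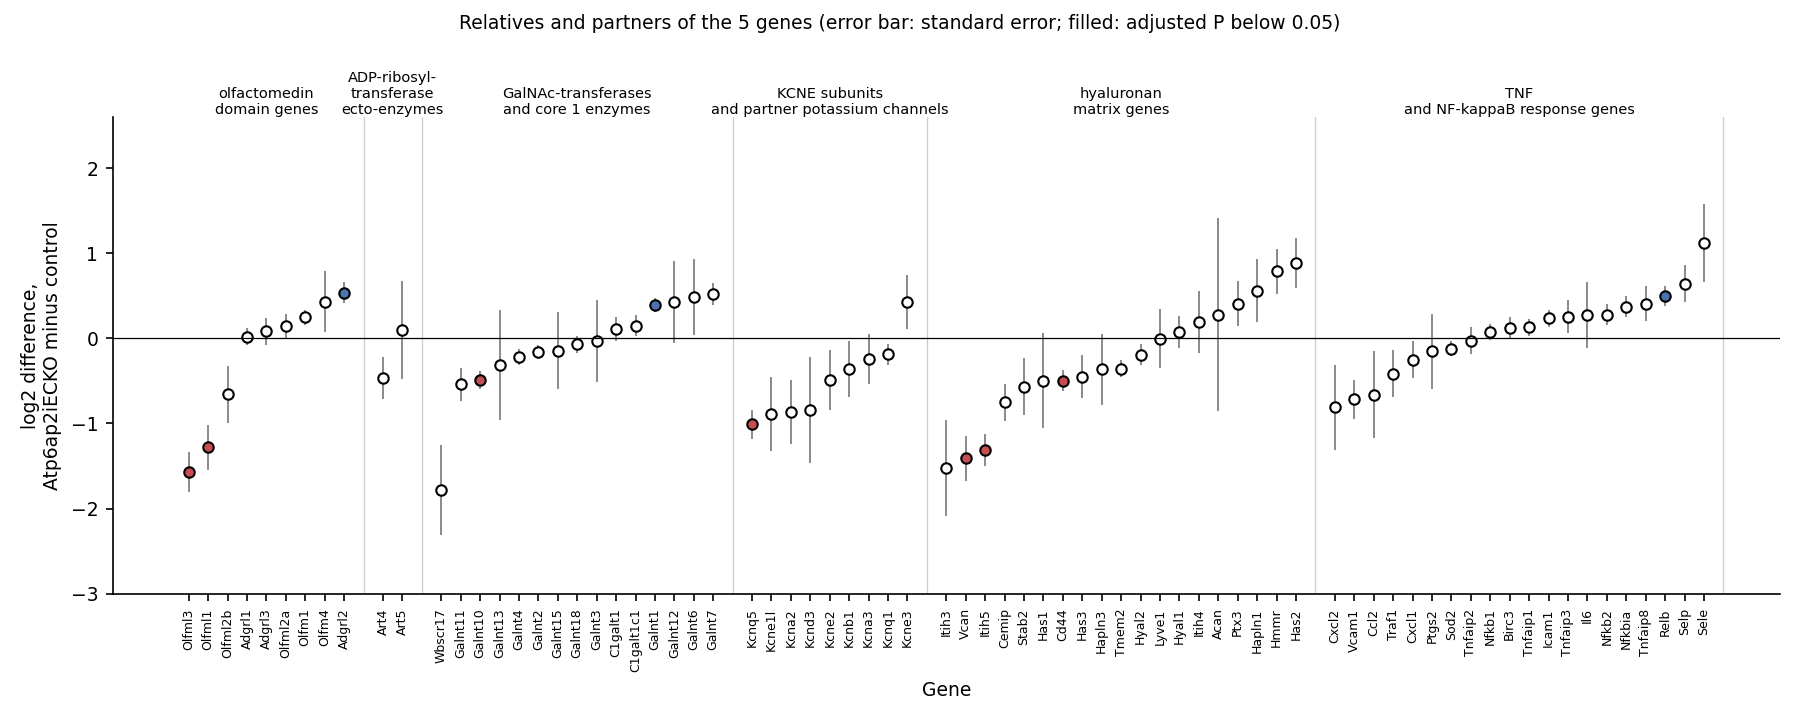
Log2 difference of Atp6ap2iECKO minus control (vertical axis, error bars are standard errors) for the 74 tested relatives and partners of the 5 genes, in 6 lists sorted by size. Filled red points passed an adjusted P value of 0.05 as lower (7 genes) and filled blue points as higher (3 genes), while open points did not pass.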

How the data were processed

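RNA-Seq libraries of iLECs from 3 control and 3 Atp6ap2iECKO samples were made by the authors with a TruSeq v2 kit, aligned to mm10 and quantified per gene with BaseSpace tools. The authors deposited 1 table whose unit is a normalized signal, although the labels call it raw counts: 0% of its values above 0 are exactly whole, and the ratios to the geometric mean had a median of 1.0036 in all 6 libraries. Read numbers cannot be recovered, no counting interval is given, and no count model was run. The 14456 genes that reached 10 in 3 or more libraries were analysed as log2(value + 1) with limma 3.58.1 (R 4.3.3), with a mean-variance trend, no covariate, and Benjamini-Hochberg adjustment over all of them at 0.05. Coordinates are from GENCODE M21 (98.1% of symbols matched). The 5 genes, the 12 lists and the motifs were chosen with earlier results of these data known, and 1 list gene is not reported here.

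Named genes were the 5 genes, Atp6ap2, Des, Rgs5 and Dcn, list genes past the threshold with up to 4 abundant others per list, the 5 highest r per gene, the 5 next falls, and 3 falls below the mean of 100. Olfm3, Art1, Art2b, Art2a-ps, Wbscr17, Kcne1, Kcne3, Lum, Pi16, Tek, Scgb1a1 and Calb2 were named after their values were seen, and Cxcl10, Gm26777, 4933406B15Rik and Gm29536 for their overlap. Alternatives were other scalings, filters, pseudocounts, variance models and thresholds, the replicate number as a block, Xist presence as a covariate, Xist-positive libraries alone, and each library left out. Groups are from the sample titles. Figures were drawn with matplotlib 3.10.9.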

Additional observations from a re-analysis of the deposited data

How the results depend on the processing

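Under 17 alternatives the log2 differences of the 5 genes moved by less than 1 SD of the replicates. They lay between -3.05 and -2.23 for Olfm2, -2.58 and -1.94 for Art3, -2.51 and -1.89 for Galnt16, -2.42 and -1.95 for Kcne4 and -2.49 and -1.92 for Tnfaip6. The filters, variance models, replicate block and Xist covariate cannot move these differences. All movement came from the scalings, the pseudocounts, the libraries left out and the Xist-positive libraries alone. Which genes made up the 5 largest falls changed more: 2 of the 5 stayed among them without the mean-variance trend, 3 with the replicate block and 1 to 4 when 1 library was left out. Limma called 2 of the 5 without the trend (adjusted P up to 0.0566) and 2 to 5 with 1 library left out (up to 0.0701). Without the trend, limma called 235 genes lower and 69 higher (719 and 474 in the reported fit), 2 and 0 family and partner genes (9 higher unadjusted) and 10 fibroblast markers lower. At a threshold of 0.01 it called 82 and 8 genes, 0 and 0 family and partner genes (14 and 12 unadjusted at 0.05), 7 mural and 9 fibroblast markers. With Xist presence as a covariate 248 genes and 1 family or partner gene were higher. Among the Xist-positive libraries alone, with fewer samples, 0 genes were lower (1233 unadjusted) and 1 higher, with 0 and 0 family and partner genes (14 and 6 unadjusted), 0 mural (21) and 0 fibroblast markers (17). Leaving out 1 library gave 176 to 659 genes lower and 28 to 461 higher, 1 to 7 and 0 to 3 family and partner genes, 9 to 18 mural and 10 to 17 fibroblast markers. The lowest counts came without Atp6ap2iECKO replicate 3 (176 and 28), followed by control replicate 3 (205 and 63), Atp6ap2iECKO replicate 2 (215 and 33) and control replicate 2 (362 and 461), and without control replicate 1 273 genes were higher. Equal library totals gave 599 lower and 573 higher. A further tally covered 60 of the named genes: Atp6ap2, Des, Rgs5, Dcn and the list genes named for threshold or abundance. It leaves out the 5 genes, their nearest profiles and the other falls. Of its 1018 values, 81 lost a call and 6 gained one. The sign changed in 0 values of the 20 genes called and in 46 values of the 40 not called.

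The replicate numbers are shared between the genotypes, and the sources used here do not say whether same-numbered libraries were paired. Deviations of same-numbered libraries correlated by 0.25, 0.11 and 0.08. Those of libraries with different numbers correlated by -0.21 to 0.10, the highest being control replicate 3 with Atp6ap2iECKO replicate 2. Each Atp6ap2iECKO library correlated most with its same-numbered control, weakly, so a pairing is neither shown nor excluded. With the replicate number as a block, 838 genes were lower and 670 higher, 9 and 6 among family and partner genes, and Has2 (adjusted P = 0.0251, up to 0.265 under other alternatives), Calcrl (0.0249, up to 0.551) and Upk1b (0.0431, up to 0.565) passed the threshold.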
